A study of Saccharomyces cerevisiae with 3 samples.

Results

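The vacuolar protein sorting (VPS) genes of the budding yeast Saccharomyces cerevisiae were followed in 3 independent steady-state chemostat cultures. They were taken as every gene whose symbol in the array's annotation is VPS followed by digits and whose probe set names 1 gene, which gave 41 of 5656 measured genes. Each of the 41 had 1 probe set, and only that of VPS5 carries a letter code for probes that can bind more than 1 transcript. All cultures belong to 1 group, grown under glucose limitation with full aeration, so no contrast between conditions exists and no test between groups was made. A litre of feed held 7.5 g of glucose, 5.0 g of (NH4)2SO4 and 4.5 mg of hydrated zinc sulphate. Cells grew at a dilution rate of 0.10 per h, 30 °C and pH 5.0, with oxygen over 80% of saturation throughout. No source used here names the strain.

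VPS genes were named for mutants that secrete vacuolar hydrolases instead of delivering them to the vacuole, the degradative and storage compartment of yeast. Cargo leaves the Golgi in vesicles, reaches endosomes and is either sorted into vesicles inside the endosome by the ESCRT complexes or returned to the Golgi by the retromer coat. Tethering complexes, Rab GTPases, SNARE proteins and a lipid kinase bring about the fusion of these membranes. Because the names come from a genetic screen, a few VPS genes encode chromatin proteins.

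The deposited signals of the arrays do not share a scale. Cultures 1, 2 and 3 had median gene signals of 54.7, 127 and 96.7. Unless stated otherwise, each value below is a signal in arbitrary units after every array was multiplied by 1 factor that brings its median to 87.7, and each mean ± SD is over the 3 cultures (n = 3). Genes are called dim if their mean was under the 30th percentile of all genes (45.6) and bright if it exceeded the 90th (558). By this definition 30% of all genes are dim and 10% are bright, and each count of dim or bright genes below stands beside those shares. These classes are of array brightness alone and give no order of transcript abundance, since each probe set binds with its own strength. Over the 3 arrays, sense-strand control probe sets reached 37.2 after scaling and 26.3 as deposited, so signals of that size can be nonspecific. All 4 markers of glucose-limited respiratory growth (HXT6, HXT7, ADH2 and ICL1) were bright. The 4 markers of glucose excess or oxygen shortage (HXT1, ANB1, AAC3 and DAN1) were all dim. Because the lists were chosen with earlier results of these data known, this is no independent check of the labelled growth condition. All 6 markers of MATalpha cells, meiosis and sporulation were dim as well, their highest mean being 45.2 ± 4.49 for SAG1. That mean lies just under the dim limit. SAG1 read 42.9, 42.2 and 50.4 in cultures 1, 2 and 3, over the control limit of 37.2. STE3 passed it in culture 2 alone (42.9).

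Most VPS genes gave signals between the dim and the bright limit, as by definition most genes of the array do. Of the 41 genes 13 (31.7%) were dim, against 30% of all genes, and 1 was bright, against 10%. The remaining 27 lay between. In 10 of the 13 dim genes the scaled signal was at or under 37.2 in every culture. That is the highest scaled sense-strand control of any array. The share of all genes that stayed under it is not given here. VPS35, with a mean of 37.4, stood at percentile 25.3 of all genes. As deposited the highest control of any array was 26.3. VPS36 (43.4 and 32.6), VPS501 (45.6 and 34.4) and VPS73 (35.2 and 32.5) passed it in cultures 2 and 3. VPS52 (37.1) and VPS9 (31.9) did so in culture 2 alone. Just under the dim limit stood VPS8 at 43.5 ± 5.76 and VPS62 at 40.97 ± 2.04, and just over it VPS74 at 48.3 ± 0.83 and VPS45 at 52.1 ± 3.79.

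**Figure D1:**
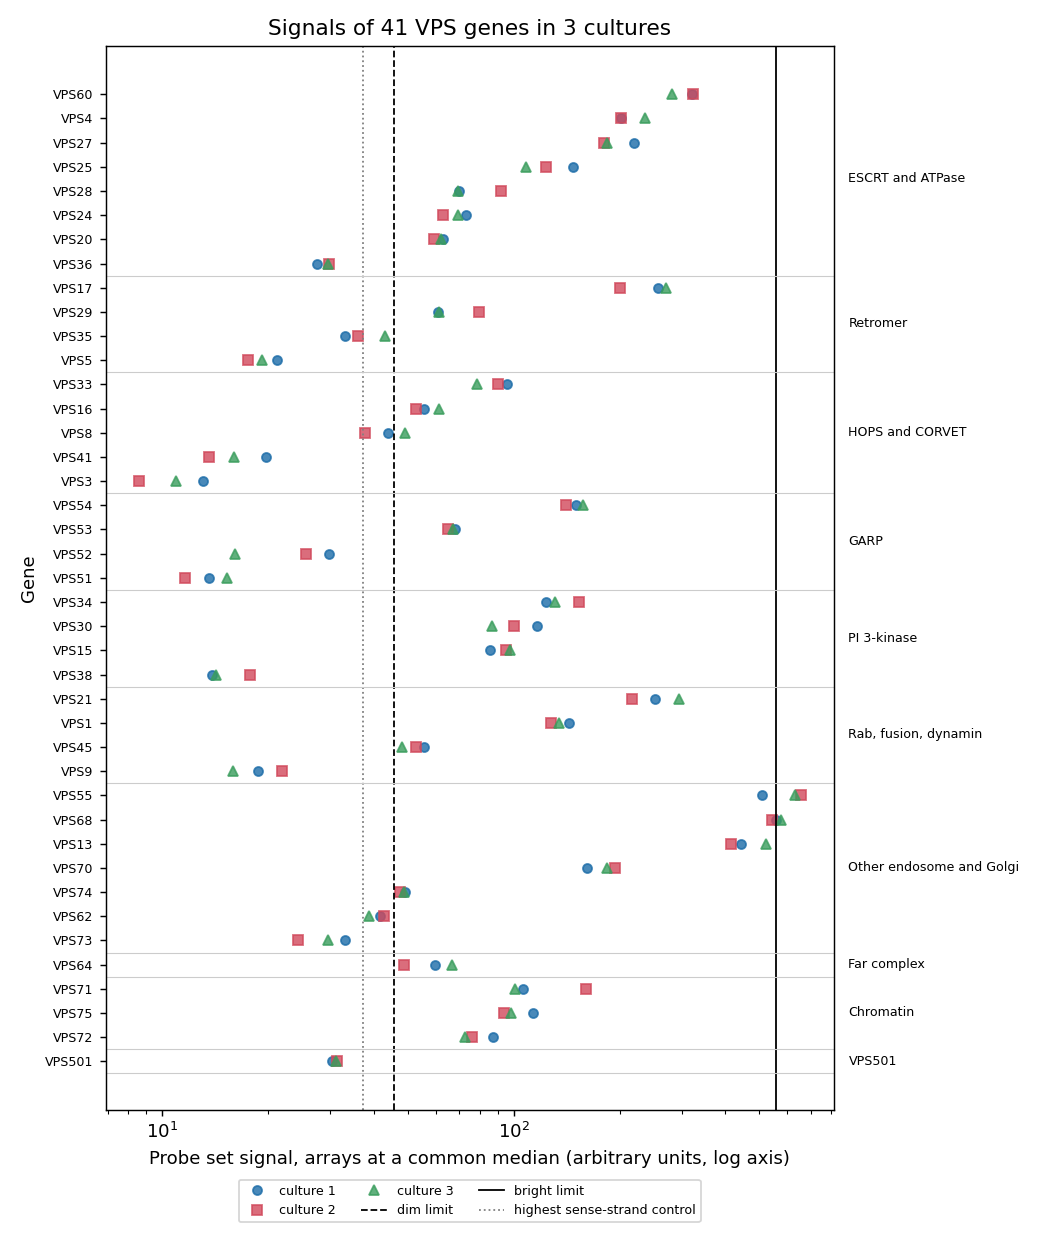
Signal of each of the 41 VPS genes (rows, grouped by role) on a log axis in arbitrary units with arrays at a common median, 1 marker per culture. The dashed, solid and dotted lines mark the dim limit (45.6), the bright limit (558) and the highest sense-strand control (37.2). Every role with 4 or more genes has members on both sides of the dim limit, and the 3 markers of a gene mostly lie close together.

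The ESCRT machinery sorts ubiquitinated membrane proteins into vesicles inside the endosome, and 7 of its 8 VPS genes were not dim. VPS27, which binds ubiquitinated cargo at the first step, read 219 in culture 1, 181 in culture 2 and 184 in culture 3. Signals of VPS28, a subunit of ESCRT-I, were 69.7, 91.7 and 69.2, so that culture 2 alone was raised. The ESCRT-II genes differed in class, VPS25 with 148, 124 and 108 lying well over the dim limit, and VPS36 with 27.5, 29.9 and 29.6 under it. VPS20 and VPS24, whose products form the ESCRT-III filament, read 61.4 ± 1.99 and 68.5 ± 5.03, and the ESCRT-III-like VPS60 read 309 ± 23.5. For VPS4, the ATPase that takes the filament apart, the values were 201, 202 and 236. VPS20 varied by 1.06-fold between its highest and lowest culture, whereas VPS25 varied by 1.37-fold and VPS28 by 1.32-fold.

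Retromer carries sorting receptors from the endosome back to the Golgi. The sorting nexin gene VPS17 read 257, 200 and 271 in cultures 1, 2 and 3, and was lowest in culture 2. VPS29 of the cargo-binding part read 60.8, 79.5 and 61.1, and was highest in culture 2. VPS17 was lowest and VPS29 highest in culture 2 at a common median, a common trimmed mean, after quantile normalization and after cyclic loess. VPS35, the largest cargo-binding subunit, was dim at 37.4 ± 5.12, and so was the sorting nexin gene VPS5 at 19.3 ± 1.83, the one with a letter-coded probe set. PEP8, which encodes the remaining subunit (Vps26), read 104, 123 and 112.

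The HOPS and CORVET complexes tether membranes to the vacuole and to endosomes, and 3 of their 5 VPS genes were dim. Of the subunits that both share, VPS33, an SM protein that assembles SNAREs, read 95.7, 90.2 and 78.8, and VPS16 read 55.6, 52.8 and 61.2. VPS41 of HOPS had 19.7, 13.6 and 15.98. VPS3 and VPS8 of CORVET had 10.9 ± 2.24 and 43.5 ± 5.76. VPS41 and VPS3 stayed under the highest sense-strand control in all cultures, so their ranges of 1.46-fold and 1.52-fold may hold nonspecific signal. Among the other subunit genes of these complexes VAM6 read 63.7 ± 7.61 and PEP3 8.53 ± 3.76, and over the whole list 5 of 8 were dim.

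The GARP complex tethers vesicles from endosomes at the Golgi, and its 4 subunit genes split evenly between the classes. VPS53 read 67.8, 64.9 and 67.2, a range of 1.04-fold, and VPS54 read 150, 141 and 158, a range of 1.12-fold. VPS51 was dim at 13.5 ± 1.84. VPS52 had 29.8, 25.5 and 16.1 and the widest range of the 41 genes, 1.85-fold, but all 3 values lay under the scaled sense-strand limit of 37.2. As deposited it read 37.1 in culture 2, over the highest deposited control of 26.3.

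The phosphatidylinositol 3-kinase complexes make the lipid that marks endosomes. VPS34, the kinase, read 123, 153 and 131 and was highest in culture 2. Its protein kinase partner VPS15 was lowest in culture 1, with 85.4 against 95.1 and 97.3. VPS30 (the yeast Beclin, also needed for autophagy) read 116, 99.8 and 86.7, and was lowest in culture 3. VPS38, specific to the endosomal complex, was dim at 15.3 ± 2.14, as was ATG14 of the autophagy complex at 19.0 ± 2.66.

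Genes for fusion at the endosome included VPS21, a Rab GTPase of the Rab5 type, with 252, 217 and 295. Its exchange factor gene VPS9 was dim at 18.8 ± 3.04. VPS45, an SM protein that works with endosomal SNAREs, read 55.6, 52.8 and 48.1, and VPS1, a dynamin-like GTPase, read 143, 127 and 135. VPS1 ranged over 1.13-fold and VPS21 over 1.36-fold, highest in culture 3. In the whole list of Rab, SNARE and fusion genes 9 of 16 were dim. Of those with other names VTI1, a SNARE, read 274 ± 16.1, the Rab gene YPT53 read 8.78 ± 2.09, and YPT52 had the widest range of those not dim at 1.36-fold.

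Genes of endosome and Golgi membranes held the only bright member. VPS55 read 509, 656 and 630, and VPS68 read 556, 543 and 575. Their products form a complex in the endosomal membrane. The mean of VPS68, 558.04, missed the bright limit of 558.48 by less than its SD of 16.2. VPS68 varied by 1.06-fold between cultures and VPS55 by 1.29-fold, with its lowest value in culture 1. VPS13, which encodes a large lipid transfer protein of membrane contact sites, read 442, 414 and 523. VPS74, whose product keeps glycosyltransferases in the Golgi, had 48.9, 47.3 and 48.6, and its range of 1.03-fold was the narrowest of the 28 members that were not dim. The less well defined VPS70 read 180 ± 16.6, while VPS62 and VPS73 were dim at 40.97 ± 2.04 and 29.0 ± 4.49. VPS501, which was in none of the role lists, was dim at 31.0 ± 0.50.

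The remaining members act away from the vacuole. VPS71 and VPS72 encode subunits of the chromatin remodeller SWR1, and VPS75 encodes a histone chaperone. VPS71 read 106 in culture 1, 161 in culture 2 and 100.5 in culture 3, so that culture 2 stood over the others. VPS72 read 87.1, 76.0 and 72.6 and VPS75 113, 93.8 and 97.9, both highest in culture 1 at this scale. Thus VPS71 and VPS72 did not share an order of cultures at a common median. As deposited, VPS72 read 54.3, 110 and 80.1, and both genes were highest in culture 2 and lowest in culture 1, as most genes were. VPS64 (FAR9), of a complex in pheromone arrest, read 59.5, 48.8 and 66.8.

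After scaling, the cultures matched closely over the VPS genes. All 28 that were not dim differed by less than 2-fold between their highest and lowest culture, where 3.54% of the 3959 genes of the whole array that were not dim passed 2-fold. A count of 0 of 28 lies near that share. VPS71 alone passed 1.5-fold (1.60-fold), against 18.2% of all genes, and 20 of the 28 stayed under 1.3-fold, against 56.3% of all genes. The median range was 1.20-fold for the VPS genes and 1.27-fold for all genes. The median SD of log2 signal was 0.14 and 0.18. These are descriptions of 3 arrays, whose number limits the precision. As deposited, 23 of the 28 passed 2-fold, against 75.1% of all genes. The array medians differ on that scale, and the cause of this was not tested.

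**Figure D2:**
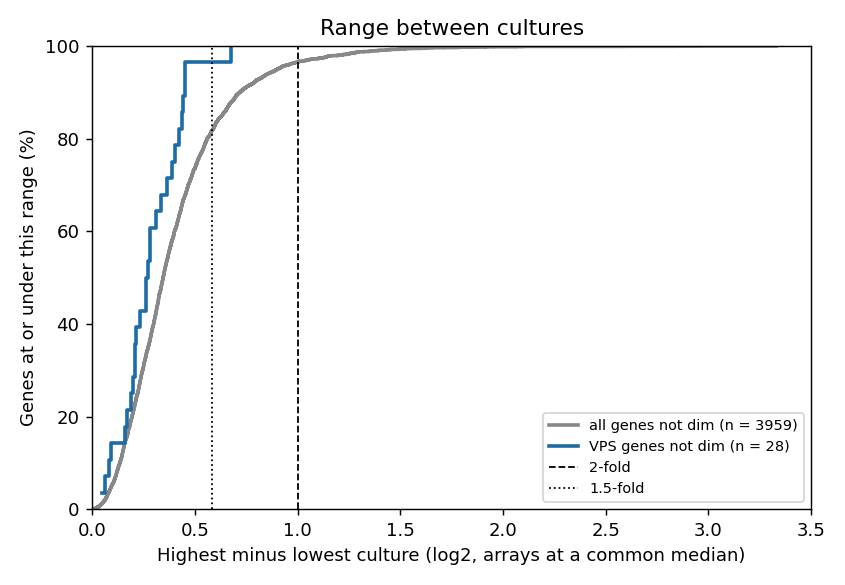
Cumulative share of genes (%) against the log2 difference between the highest and the lowest of the 3 cultures, arrays at a common median, for 28 VPS genes and for 3959 genes in all, none of them dim. The dotted and dashed lines mark 1.5-fold and 2-fold, and the VPS curve ends before 2-fold, with VPS71 as its last step.

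Single cultures moved the VPS genes little as a group. Their median log2 deviation from a gene's own 3-culture mean came to 0.02, -0.04 and 0.01 in cultures 1, 2 and 3, beside 0.02, 0.01 and -0.01 for all genes that were not dim. The lowest signal fell in culture 2 for 14 of 28 VPS genes, against 36.2% of all genes. It fell in culture 1 for 6 (30.1% of all genes) and in culture 3 for 8 (33.7% of all genes). Highest signals fell in culture 1 for 12 genes, in culture 2 for 7 and in culture 3 for 9, against 35.5%, 36.4% and 28.1% of all genes. These counts depend on the scale. Lowest signals in culture 2 numbered 13 after quantile normalization or cyclic loess (34.0% and 36.6% of all genes) and 10 at a common trimmed mean (32.7%). They numbered 0 both as deposited and with arrays scaled to the hybridization controls (0.83% and 3.21% of all genes). There all 28 were lowest in culture 1, as were 98.1% and 96.5% of all genes. At a common trimmed mean the lowest signal fell in culture 1 for 12 genes (42.2% of all genes). Highest signals at that scale fell in cultures 1, 2 and 3 for 6, 8 and 14 genes, beside 23.7%, 39.3% and 37.0% of all genes. No order of the cultures is therefore read from these counts.

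**Figure D3:**
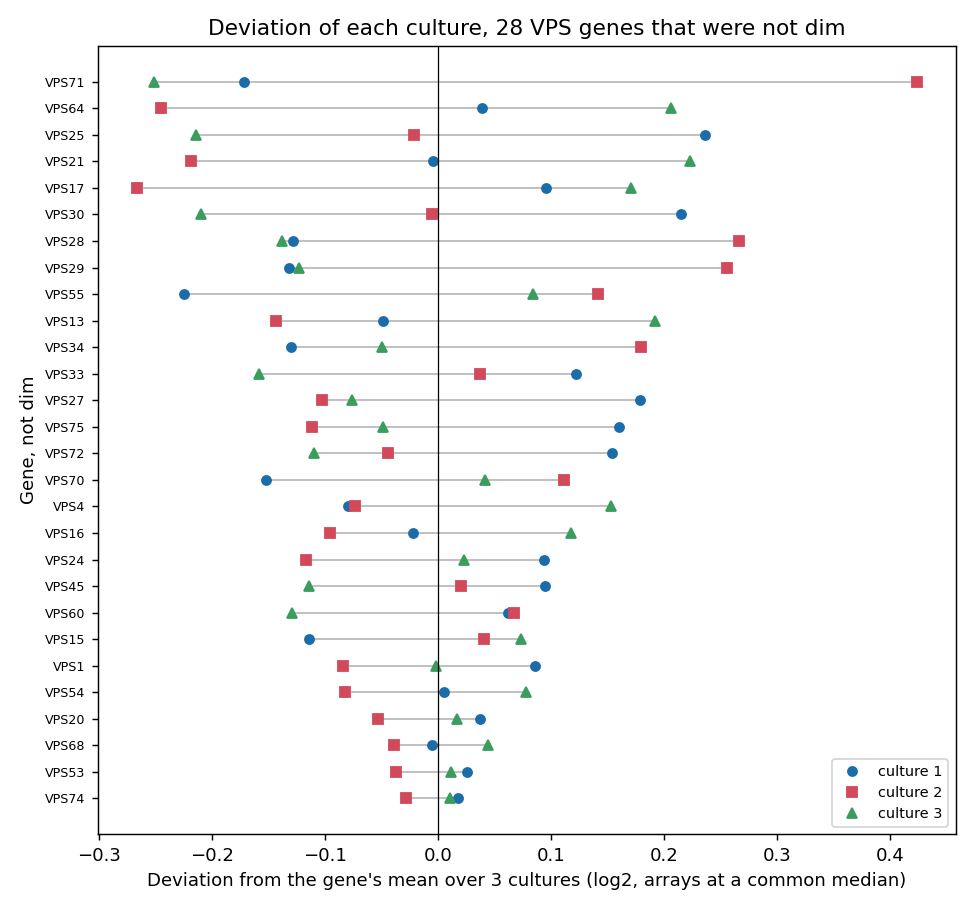
Deviation of each culture from the gene's own mean (log2, arrays at a common median) for the 28 VPS genes that were not dim, sorted by range. VPS71 in culture 2 lies farthest out at 0.42, VPS28 and VPS29 also lie to the right in culture 2, and VPS17, VPS64 and VPS21 lie to the left there.

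VPS71 rested on 1 culture. Its deviation in culture 2 was 0.42, and without that culture its range fell from 0.68 to 0.08 on the log2 scale. It was highest in culture 2 under each of the 6 scalings tried, the deposited values included (66.3, 233 and 111). The 20 probe sets nearest to it in number that were not dim had a median deviation of 0.07 in culture 2, the highest being 0.44. VPS28 and VPS29 had deviations of 0.27 and 0.26 in culture 2 and were likewise highest there under all 6 scalings. The deposited scale adds little to this, since 87.0% of all genes that were not dim were highest in culture 2 on it. VPS17, VPS21, VPS64 and VPS13 were lowest in culture 2 and highest in culture 3 at a common median, a common trimmed mean, after quantile normalization and after cyclic loess, with ranges at a common median of 1.35, 1.36, 1.37 and 1.26-fold. VPS25 and VPS30 went from high in culture 1 to low in culture 3 under the same 4 scalings, by 1.37-fold and 1.34-fold.

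Sorting genes that carry other standard names were measured for 41 of the 43 listed, of which 13 were dim and none was bright, with the SNARE gene YKT6 at 443 ± 54.9 and PEP3 at 8.53 ± 3.76. Of the 28 that were not dim, 1 passed 2-fold and 5 passed 1.5-fold, near the 3.54% and 18.2% of all genes that did so. The gene over 2-fold was STP22, known as VPS23, the ubiquitin-binding subunit of ESCRT-I and partner of VPS28. STP22 read 178 in culture 1, 91.8 in culture 2 and 218 in culture 3, a range of 2.38-fold. A further, letter-coded probe set of STP22 read 100.6, 43.7 and 96.0. Both were lowest in culture 2, where VPS28 was highest. The 20 probe sets nearest in number to that of STP22 had a median deviation of 0.04 in culture 2 and a lowest one of -0.96, so that the -0.73 of STP22 lay within their range. In culture 3 the 0.52 of STP22 lay over their highest deviation of 0.48. On the deposited scale the lowest STP22 value was in culture 1, as for most genes, and the highest in culture 3, a range of 2.17-fold. Under every other scaling tried STP22 was lowest in culture 2. With hybridization controls its range was 2.68-fold, where 96.5% of all genes that were not dim were lowest in culture 1.

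The ESCRT list as a whole, with its 12 genes of other names, held 4 dim genes among 20 and 1 over 2-fold, STP22. DID4 of ESCRT-III read 301 ± 34.2 and IST1 18.4 ± 4.19. For comparison with the compartment these genes serve, none of 14 subunit genes of the vacuolar proton ATPase was dim and 6 were bright, and none of 9 vacuolar hydrolase genes was dim and 5 were bright. Of all genes 30% were dim and 10% bright. These counts describe brightness classes by list and were not tested.

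**Figure D4:**
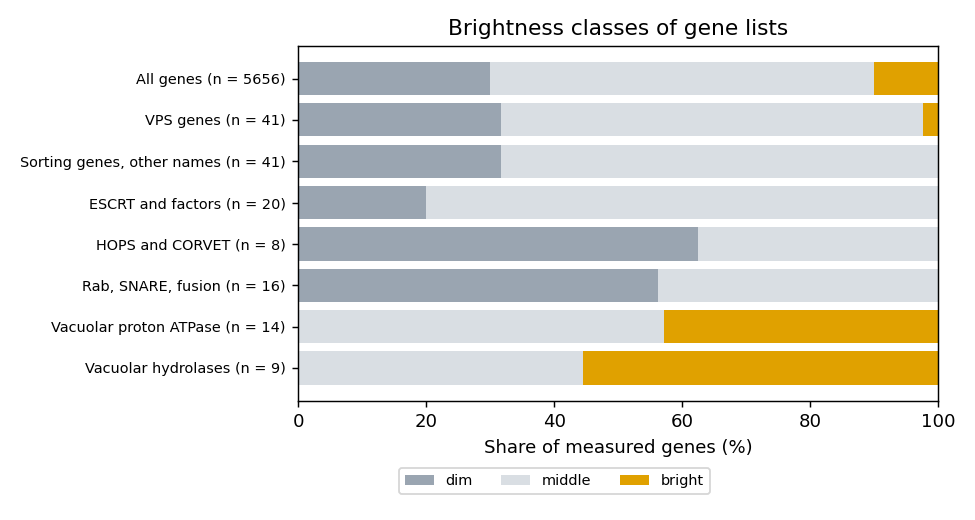
Share of measured genes (%) that were dim, in between or bright by mean signal over 3 cultures, for all genes, the VPS genes and 6 lists of related genes. The VPS genes and the sorting genes of other names have the same share of dim genes, 31.7%, and the ATPase and hydrolase lists have no dim gene.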

How the data were processed

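Biotin-labelled target from 15 µg of total RNA went onto a separate Affymetrix array for each culture, per the labels' protocols, and the submitters' processing notes name GCOS. The deposited values are probe set intensities on a linear scale. No source used here gives their summary method, background correction or scaling. Of 9335 probe sets 60 were controls. The platform annotation gave 1 gene for 6504, several for 328 (not used) and none for 2443. All 41 VPS genes matched the RefSeq table (assembly R64) by identifier. Each gene was represented by its plain-named probe set, otherwise by the brightest. Arrays were scaled to a common median, signals floored at 1 and taken to log2 (Python 3.11.15, numpy 2.4.6, pandas 2.3.3). Quantile normalization and cyclic loess used limma 3.58.1 in R 4.3.3. The step that counts genes past 2-fold was first run on simulated signals with known changes. With 1 group there is no test between groups and no p-value.

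Every VPS gene may be named. Of each role list the other genes named are those with the highest and lowest mean, the largest range and any range over 2-fold. HXT6, HXT7, HXT1 and ANB1 are markers that the rule allows. The members and lists were chosen with earlier results of these data known. The 1.5-fold and 1.3-fold counts were added after the data were seen. Other scalings, dim limits, log2(signal + 16), the mean over probe sets, leaving out each culture and leaving out the 3 chromatin genes were alternatives.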

Additional observations from a re-analysis of the deposited data

How the results depend on the processing

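No paired analysis was possible because the 3 cultures form 1 group. Of the results on the VPS genes, the bright count moved in 8 of 14 settings and the 1.5-fold count in 6 of 14, and each of the others in 2. On the deposited scale 23 VPS genes passed 2-fold and 28 passed 1.5-fold, the median SD of log2 signal was 0.60 and the median deviations were -0.66, 0.50 and 0.15 in cultures 1, 2 and 3. Scaling to the hybridization controls gave 17 and 28 genes, an SD of 0.55 and deviations of -0.60, 0.19 and 0.41. All genes shifted alike in both settings, with median deviations of -0.66, 0.55 and 0.13 and of -0.60, 0.23 and 0.39. With the dim limit set anew at each scale, 75.5% of all genes not dim passed 2-fold as deposited and 97.2% passed 1.5-fold. With hybridization controls these shares were 57.5% and 96.1%. VPS68 joined VPS55 as bright, making 2, as deposited, at a common trimmed mean, after quantile normalization or cyclic loess, with hybridization controls and with probe sets averaged per gene, and 1 to 2 were bright with a culture left out. With dim set under the 10th percentile 2 VPS genes were dim, and 24 under the 50th. The 1.5-fold count was 2 with the 10th percentile, 3 with no dim limit and 0 without the chromatin genes. The shares of all genes in those settings were 20.6%, 26.0% and 18.2%. It was 0 without culture 2 and 1 without culture 1 or culture 3, beside 5.99%, 9.32% and 11.1% of all genes. The cause of these moves was not tested, except that lower dim limits admit more genes and that VPS71 is a chromatin gene. With 0 genes past 2-fold in the main setting, no direction of such a gene could reverse. The median deviations of cultures 1 and 2 did change sign as deposited and with hybridization controls. That of culture 1 was also -0.04 at a common trimmed mean and -0.004 with dim set under the 50th percentile. That of culture 3 was -0.004 without culture 2. Signal near the sense-strand controls limits what can be said of the 10 VPS genes that never rose over the scaled limit of 37.2. Of these, VPS36, VPS501, VPS73, VPS52 and VPS9 passed the highest deposited control, 26.3, in culture 2 on the deposited scale.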

Other observations

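Among the enzymes that reach the vacuole through or beside this pathway, the protease PEP4 read 1364 ± 255 and the phosphatase PHO8 107 ± 19.6, and PRB1 had the widest range, with 933, 482 and 823 in cultures 1, 2 and 3. At a common median the lowest signal fell in culture 2 for 7 of 9 hydrolase genes, against 36.2% of all genes that were not dim. This count was 5 after quantile normalization (34.0% of all genes), 5 at a common trimmed mean (32.7%) and 6 after cyclic loess (36.6%). It was 0 as deposited and 1 with hybridization controls, where 0.83% and 3.21% of all genes were lowest in culture 2. Of the proton ATPase genes VMA3 read 1759 ± 116 and STV1, the subunit of the Golgi and endosomal form of the pump, 142 ± 14.4. VMA1 had the widest range of that list, with 328, 244 and 456. No test was made of these differences.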
